A study of Mus musculus with 8 samples.

Results

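The genes described here encode the lipid kinase complex that makes phosphatidylinositol 4-phosphate (PI4P) at the plasma membrane. They are Pi4ka, its scaffold genes Ttc7 and Ttc7b, its stabilizing partners Fam126a and Fam126b, and its membrane anchors Efr3a and Efr3b, which makes 7 of the 24063 genes in the deposited tables. Ttc7b was chosen by its difference between treatments in these same libraries, and the other 6 were added for their known place in the complex. Values of Ttc7b between treatments are therefore a description with no test. RNA came from tubuloids, which are tubule-like structures grown between layers of Matrigel from fragments of mouse kidney. Kidneys were taken, per the labels, between postnatal days 7 and 10 (the study's methods give an earlier range). The study's culture protocol began with a pulse of glial-derived neurotrophic factor, in medium that also held hepatocyte, epidermal and fibroblast growth factors. All cultures carried the genotype Pkd2fl/fl Pax8rtTA TetOCre mTmG, so controls also held the floxed alleles, the transactivator, Cre and the reporter. On culture day 3 they received doxycycline (DOX, 4 libraries: DOX 9, 12, 19 and 21), which switches on Cre, or the vehicle dimethyl sulfoxide (DMSO, 4 libraries: DMSO 3, 5, 15 and 20) for 3 days, and RNA was extracted on day 7. The Pax8 promoter restricts Cre to epithelial cells, and the study described prestructures, which are undifferentiated, as not responding, and red cells without recombination as still present. No cultures without Cre received DOX here, so the drug, Cre activity and loss of Pkd2 cannot be told apart. Tubuloids hold mixed cells, so fewer cells of a type and less RNA per cell cannot be told apart either.

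PI4P is the precursor from which the plasma membrane makes phosphatidylinositol 4,5-bisphosphate (PIP2), a lipid that phospholipase C cleaves and that many channels and membrane proteins bind. The kinase itself, PI4KA, has no membrane anchor of its own. EFR3 proteins, which are palmitoylated, hold the complex at the membrane, a TTC7 protein links EFR3 to the kinase, and a FAM126 protein (FAM126A is also called hyccin) stabilizes TTC7. TTC7A with TTC7B, FAM126A with FAM126B, and EFR3A with EFR3B are paralogs that can take the same position in the complex, whereas PI4KA has no paralog in it. Loss of FAM126A causes a hypomyelinating leukodystrophy, and mutations of TTC7A cause intestinal atresia with immune deficiency. The tables use the older symbol Ttc7 for the gene of TTC7A.

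Each gene was represented by 1 transcript, so no choice of isoform entered its values. Ttc7b lies on the minus strand of chr12:100300770-100520837 (GRCm38) with 20 exons, and Ttc7 on the plus strand of chr17:87282808-87381770, also with 20 exons. Pi4ka, on the minus strand of chr16:17280351-17406314, has 55 exons. Fam126a (chr5:23915276-24030696, minus strand) and Fam126b (chr1:58522806-58586333, minus strand) have 11 and 12 exons, and Efr3a (chr15:65787020-65873812, plus strand) and Efr3b (chr12:3962554-4039103, minus strand) have 23 each. The library kit does not mark strand, so reads where genes on opposite strands overlap cannot be separated. For Ttc7b, 582 of 3446 exon bases (16.9%) overlap the antisense gene Gm10432, which had 15 to 94 counts per library, equal to 1.64% to 3.43% of the Ttc7b counts. For Pi4ka, 299 exon bases (4.65%) overlap Snap29 and Tmem191c, whose counts equalled 20.0% to 81.2% and 0% to 31.5% of the Pi4ka counts in a library. The part of these genes in the Pi4ka counts was not tested.

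The upstream sequences are shown for Ttc7b, the gene chosen by its treatment difference, and for its paralog Ttc7. Each was taken from the 250 bases before an annotated start in RefSeq on GRCm38.p6 and is written 5′ to 3′ on the gene's own strand. For Ttc7 that start lies within the gene span given above, so the last 78 bases of its window, which overlap the span, are left out and 172 are shown. Capitals mark a GC box, spelled GGGCGG or, on the other strand, CCGCCC.
Ttc7b, chr12:100520838-100521087, minus strand: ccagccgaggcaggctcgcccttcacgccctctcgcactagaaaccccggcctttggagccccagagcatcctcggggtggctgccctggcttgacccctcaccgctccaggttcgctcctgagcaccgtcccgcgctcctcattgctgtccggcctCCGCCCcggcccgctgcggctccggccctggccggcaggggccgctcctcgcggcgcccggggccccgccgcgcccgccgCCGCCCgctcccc
Ttc7, chr17:87282636-87282807, plus strand: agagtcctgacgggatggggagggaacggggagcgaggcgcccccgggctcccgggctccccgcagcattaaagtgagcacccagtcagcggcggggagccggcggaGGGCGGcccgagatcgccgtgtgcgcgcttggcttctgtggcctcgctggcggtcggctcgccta
Both full windows were rich in G and C (77.6% for Ttc7b and 74.4% for Ttc7, against a median of 52.4% over 32851 promoter windows of this length), and each held 30 CpG dinucleotides, against a median of 6. The Ttc7b window held 2 GC boxes and the Ttc7 window 1, a motif found in 32.7% of all windows. A second annotated start of Ttc7b gave an overlapping window (chr12:100520823-100521072) with 3 GC boxes and 31 CpG dinucleotides. Of the other motifs searched, CCAAT (33.8% of all windows), TATAAA (12.4%), CACGTG (6.02%) and TGACGTCA (1.55%), each searched on both strands, were found in none of these windows. These are matches of letters only, and binding or methylation was not measured. Upstream windows were matched for 6 of the 7 genes, the exception being Efr3a.

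Libraries held 63922677 (DMSO 20) to 102716313 (DOX 12) summed transcript counts. Of these, DMSO 20 and DOX 19 stood apart, with counts for 13243 and 13599 genes against 17054 to 17903 in the other 6 libraries, so the fold changes of the 7 genes are also given for the 3 against 3 other libraries. Normalised counts (counts divided by the size factors of DESeq2) of the targeted gene Pkd2 were 4813 to 7538 with DMSO and 4136 to 5952 with DOX, which overlap (log2 fold change -0.31, SE 0.215; DESeq2 adjusted p = 0.999). These counts cover the whole transcript and do not separate the floxed exons. By western blot, the study reported a significant loss of polycystin-2, the Pkd2 protein, after doxycycline, although some protein remained. In sorted cells, the study found less of this protein in those with the recombined reporter than in those without. A gene was called at a DESeq2 adjusted p of at most 0.05 and at least 1.5-fold, which held for 25 of 17011 genes (0.147%). That number depended on single libraries and was 14 without DMSO 3, 75 without DMSO 15, 48 without DMSO 20 and 38 without DOX 21. Nothing in the labels tied libraries to animals, so p-values measure the spread between these cultures.

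Levels between genes were compared in deposited TPM, which are scaled by transcript length. Over all 8 libraries the mean was 39.2 TPM for Efr3a, 19.4 for Fam126a, 13.3 for Ttc7b, 11.6 for Pi4ka, 3.41 for Ttc7, 2.62 for Fam126b and 0.607 for Efr3b. In each pair of paralogs one gene was thus the more abundant on average, namely Efr3a, Fam126a and Ttc7b. Efr3a lay above 78.7% of the 19634 detected genes, Ttc7b above 61.0% and Efr3b above 26.8%. The Efr3b mean was raised by DOX 19 (2.50 TPM, against 0 to 0.662 TPM in the other libraries). The only neighbours in this order whose ranges did not overlap were Pi4ka and Ttc7, and Pi4ka was higher in 8 of 8 libraries. Efr3a exceeded Fam126a in 7 of 8 libraries, the exception being DMSO 20, and Fam126b exceeded Efr3b in 7 of 8, the exception being DOX 19. Fam126a exceeded Ttc7b in 4 of 8 libraries, Ttc7b exceeded Pi4ka in 5 of 8 and Ttc7 exceeded Fam126b in 5 of 8, so the order within these pairs was not distinguishable over all libraries. The place of Ttc7b, the gene chosen by its treatment difference, varied with the group. It was above Pi4ka in 1 of 4 DMSO and 4 of 4 DOX libraries. It was above Fam126a in 1 of 4 DMSO and 3 of 4 DOX libraries. Its mean was below that of Fam126a with DMSO (8.62 against 25.1 TPM) and above it with DOX (17.9 against 13.8 TPM). The Fam126a mean with DMSO was raised by DMSO 20 (59.5 TPM). Without that library the DMSO means were 8.87 TPM for Ttc7b and 13.6 TPM for Fam126a. DMSO 20 also raised the mean of Fam126a over all 8 libraries.

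**Figure D1:**
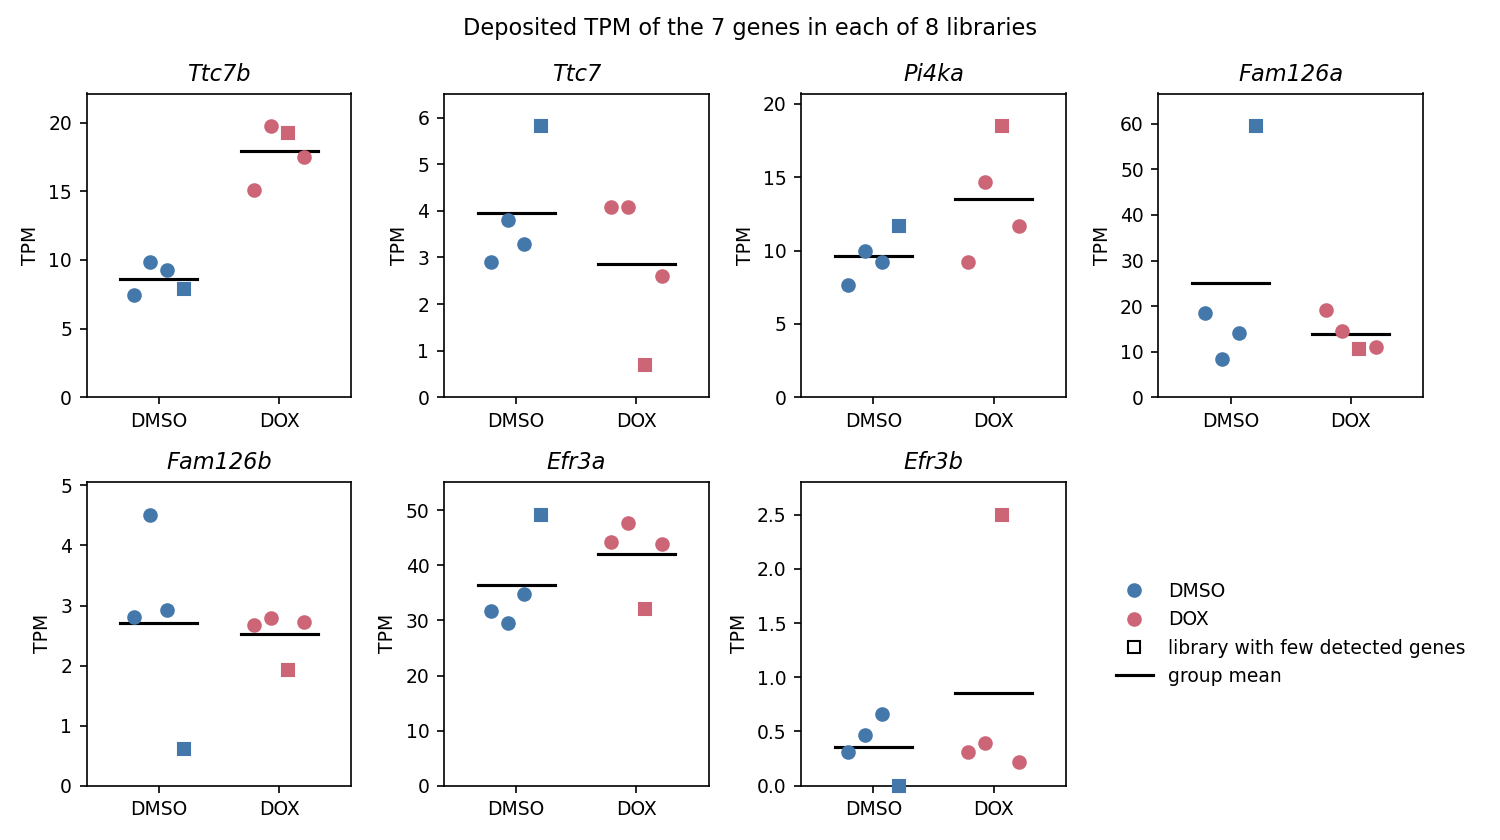
Deposited TPM (vertical axes, each from 0) of the 7 genes in each DMSO and DOX library, with the group mean as a line; squares are the libraries with few detected genes, DMSO 20 and DOX 19. Ttc7b is the only panel in which the groups do not overlap (7.45 to 9.86 in DMSO, 15.1 to 19.8 in DOX), and the squares lie at an end of most other panels.

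Ttc7b, the scaffold gene on which the set was built, was higher in each DOX library than in any DMSO library. Its TPM was 7.45, 9.86, 9.29 and 7.89 in DMSO 3, 5, 15 and 20, and 15.1, 19.8, 19.2 and 17.5 in DOX 9, 12, 19 and 21. The lowest DOX library exceeded the highest DMSO library, and in TPM neither DMSO 20 nor DOX 19 was at an end of the order. On normalised counts they were the lowest DMSO library (1060) and the highest DOX library (2835). Raw counts were 1296, 1247, 1514 and 828 in DMSO and 2562, 3306, 2513 and 2387 in DOX libraries, so the groups were apart before scaling as well. Group means were 8.62 ± 1.14 TPM in DMSO and 17.9 ± 2.09 TPM in DOX (SD, n = 4 each). On normalised counts the difference was 1.96-fold (log2 fold change 0.97, SE 0.185), and without DMSO 20 and DOX 19 the log2 fold change was 0.84. For scale, all 4 DOX libraries lay above all 4 DMSO libraries in 288 of 17550 genes (1.64%), and DESeq2 called 14 of 17011 genes higher with DOX (0.0823%). Ttc7b was 1 of these 14, which is how it was chosen. It was not called by edgeR, which called 0 of 15562 genes (0%) with 476 at an unadjusted p under 0.05, nor by limma-voom, which called 0 with 478, nor by DESeq2 on 3 against 3 libraries.

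Ttc7, the gene of the alternative scaffold TTC7A, did not differ beyond its spread. Its TPM was 2.91, 3.80, 3.28 and 5.82 in DMSO 3, 5, 15 and 20, and 4.09, 4.07, 0.685 and 2.60 in DOX 9, 12, 19 and 21. The groups overlapped, with DMSO 20 highest and DOX 19 lowest of all 8 libraries. The log2 fold change was -0.56 (SE 0.532, 95% interval -1.60 to 0.49; DESeq2 adjusted p = 0.999) and was -0.03 without DMSO 20 and DOX 19.

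The balance between the scaffold paralogs was computed as the share of Ttc7b in the summed TPM of Ttc7b and Ttc7. It was 71.9%, 72.2%, 73.9% and 57.5% in DMSO 3, 5, 15 and 20, and 78.7%, 82.9%, 96.6% and 87.0% in DOX 9, 12, 19 and 21. All DOX libraries lay above all DMSO libraries, with the extremes in DMSO 20 and DOX 19. Among the 6 other libraries the groups still did not overlap, at 71.9% to 73.9% with DMSO and 78.7% to 87.0% with DOX. DMSO 20 and DOX 19 thus widened the difference between the group means. The mean share was 68.9% ± 7.61 in DMSO and 86.3% ± 7.63 in DOX (SD, n = 4 each). The summed TPM of both scaffold genes was 12.6 ± 1.57 in DMSO, with a range of 10.4 to 13.7, and 20.8 ± 2.08 in DOX, with a range of 19.2 to 23.8. Since Ttc7b enters the share and the sum, both follow from the way it was chosen and were not tested. No such separation was seen in the other pairs. The share of Fam126a in its pair was 64.9% to 99.0% with DMSO and 80.1% to 87.7% with DOX. That of Efr3a was 98.1% to 100% with DMSO and 92.8% to 99.5% with DOX.

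**Figure D2:**
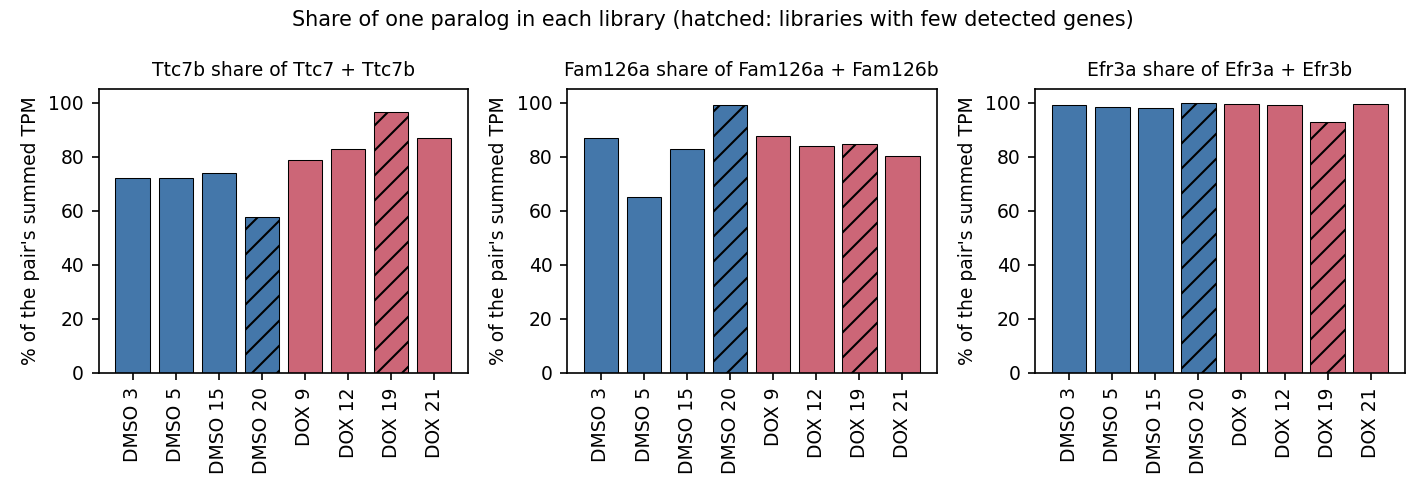
Share of one paralog in the summed TPM of its pair (vertical axes, percent, from 0) in each of the 8 libraries; blue bars are DMSO, red bars DOX, and hatching marks DMSO 20 and DOX 19. The Ttc7b share is 57.5% to 73.9% in DMSO and 78.7% to 96.6% in DOX libraries, whereas the shares of Fam126a and Efr3a overlap between groups.

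Pi4ka, the catalytic subunit, had a higher point estimate with DOX that did not pass the test. Its TPM was 7.64, 9.98, 9.21 and 11.6 in DMSO 3, 5, 15 and 20, and 9.18, 14.7, 18.5 and 11.7 in DOX 9, 12, 19 and 21. The groups overlapped, since DOX 9 lay below 3 of the DMSO libraries, and the highest value was that of DOX 19. Means were 9.62 ± 1.66 and 13.5 ± 4.01 TPM (SD, n = 4 each), with a log2 fold change of 0.42 (SE 0.275, 95% interval -0.12 to 0.96; DESeq2 adjusted p = 0.999), or 0.26 without DMSO 20 and DOX 19. The ratio of Ttc7b to Pi4ka in TPM was 0.678 to 1.01 in DMSO and 1.04 to 1.65 in DOX libraries, ranges that lay apart and again contain the gene chosen for its difference.

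Fam126a, whose product stabilizes the scaffold, was the member with the widest range among the abundant ones. Its TPM was 18.4, 8.34, 14.0 and 59.5 in DMSO 3, 5, 15 and 20, and 19.0, 14.6, 10.5 and 11.0 in DOX 9, 12, 19 and 21. DMSO 20 stood far above the others, and the remaining 7 libraries overlapped. The log2 fold change of -0.92 (SE 0.589, 95% interval -2.07 to 0.24; DESeq2 adjusted p = 0.999) became -0.05 without DMSO 20 and DOX 19.

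Fam126b, its less abundant paralog, was lowest in that same DMSO library. Its TPM was 2.80, 4.52, 2.93 and 0.615 in DMSO 3, 5, 15 and 20, and 2.67, 2.80, 1.93 and 2.73 in DOX 9, 12, 19 and 21. The DOX values lay within the DMSO range through DMSO 20 alone, and were below those of the other 3 DMSO libraries (log2 fold change -0.19, SE 0.549, 95% interval -1.27 to 0.88; DESeq2 adjusted p = 0.999). The estimate was -0.53 without DMSO 20 and -0.42 without both DMSO 20 and DOX 19 (DESeq2 adjusted p = 0.772 for the latter).

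Efr3a, the main membrane anchor by level, was the most evenly expressed member over all 8 libraries. Its TPM was 31.7, 29.6, 34.9 and 49.2 in DMSO 3, 5, 15 and 20, and 44.3, 47.8, 32.1 and 43.8 in DOX 9, 12, 19 and 21. DMSO 20 was the highest of all libraries, and DOX 19 lay among the other DMSO libraries, so in TPM the groups overlapped through these 2 libraries, as the plot of TPM by library shows. Its highest value was 1.66 times its lowest, against 2.65 times for Ttc7b and 8.49 times for Ttc7. The log2 fold change was 0.12 (SE 0.233, 95% interval -0.34 to 0.58; DESeq2 adjusted p = 0.999), or 0.34 (DESeq2 adjusted p = 0.900) without DMSO 20 and DOX 19.

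Efr3b, the minor anchor paralog, had few counts in most libraries. It had 103, 113, 205 and 0 counts in DMSO 3, 5, 15 and 20, and 99, 124, 621 and 57 counts in DOX 9, 12, 19 and 21. DMSO 20 had none among 63922677 counts, which allows up to 3 counts at this depth from counting error alone, and DOX 19 had more than any other library. TPM was 0.311, 0.470, 0.662 and 0 in the DMSO libraries and 0.307, 0.390, 2.50 and 0.219 in the DOX libraries, in the same order. The log2 fold change of 1.17 had a 95% interval from -1.44 to 3.77 (SE 1.33; DESeq2 adjusted p = 0.999), and it was -0.83 without DMSO 20 and DOX 19. Its direction rested on DOX 19, without which the estimate was -0.42, whereas without DMSO 20 alone it was 0.74.

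**Figure D3:**
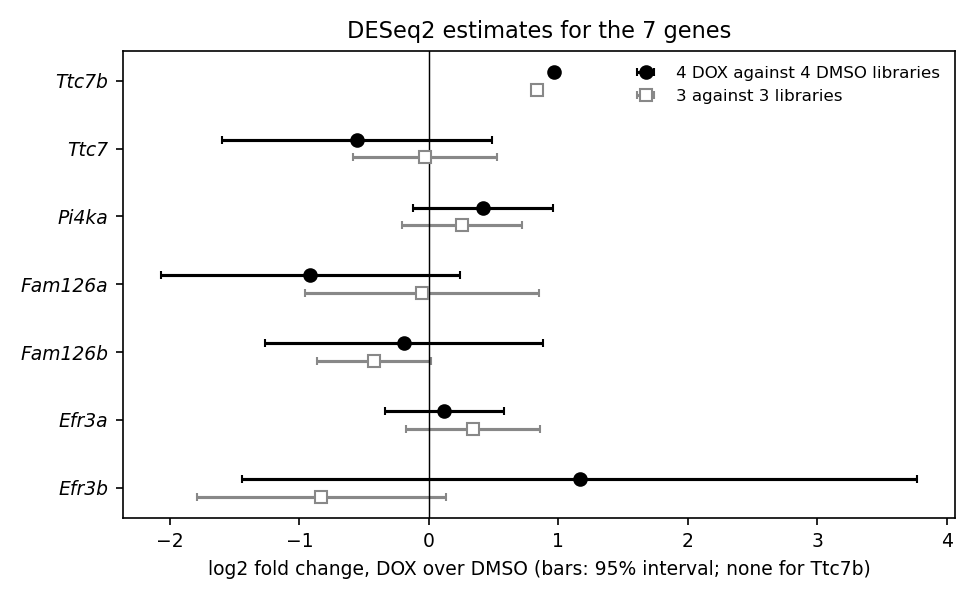
Log2 fold change of DOX over DMSO (horizontal axis) for the 7 genes from DESeq2, with 95% intervals except for Ttc7b, which was chosen by this difference; filled circles are the fit of 4 against 4 libraries and open squares that of 3 against 3, without DMSO 20 and DOX 19. The intervals of the 6 genes other than Ttc7b all include 0, and the estimates of Fam126a (-0.92 and -0.05) and Efr3b (1.17 and -0.83) move most between the fits.

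Among the 6 members other than Ttc7b, DESeq2 and edgeR each called 0, beside 0.147% and 0% of all genes tested. In either test 0 of the 6 had an unadjusted p under 0.05, against 4.67% of all 19268 genes with a DESeq2 p. Their point estimates were higher with DOX for 3 (Pi4ka, Efr3a and Efr3b) and lower for 3 (Ttc7, Fam126a and Fam126b). The median log2 fold change of the 6 was -0.04, beside -0.07 over the 17011 genes tested. All 6 had overlapping groups, as did most genes, since the groups lay apart in only 2.72% of 17550 genes. These counts therefore do not set the 6 apart from other genes. The intervals of Ttc7, Fam126a, Fam126b and Efr3b each spanned more than a 4-fold range, so sizeable changes of these genes were not excluded by these libraries. DMSO 20 held 5 and DOX 19 held 3 of the 14 highest and lowest TPM values of the 7 genes (57.1%), beside 42.9% of such extremes over the 13248 genes with a mean normalised count of at least 100. On normalised counts both libraries together held 10 of the 14, beside 45.1%.

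The makeup of the cultures was read from marker lists. The 6 epithelial markers, among them Cdh1, Epcam and Pax8, summed to 453 to 2041 TPM in DMSO and 586 to 1356 TPM in DOX libraries, with 6 of 6 lower in point estimate and 0 called. Stromal markers summed to 257 to 2522 and 490 to 824 TPM, with 5 of 6 lower, and endothelial markers to 22.7 to 64.7 and 29.0 to 161 TPM, with 2 of 5 lower. Epithelial markers were present in every library, beside a variable stromal sum. DMSO 15, the library whose removal moved the calls to 75, had the lowest epithelial sum (453 TPM) and the highest stromal sum (2522 TPM). The stromal sum also exceeded the epithelial sum in DOX 21 (769 against 586 TPM). Sums over different genes do not give shares of cells. Macrophage markers summed to 4.35 to 28.7 and 0.0068 to 11.0 TPM, with 5 of 5 lower. Adrenal cortex markers summed to 5.13 to 47.9 and 0.951 to 17.0 TPM, with 5 of 7 lower and 1 higher. The remaining adrenal gene, Hsd3b1, had no counts in any library. Of the adrenal markers 1 was called (Cyp11a1, the side-chain cleavage enzyme of steroid synthesis). The adrenal sums of 47.9 TPM in DMSO 20 and 0.951 TPM in DOX 19 were Cyp11a1 alone, since the other 6 genes were at 0 there. Neural markers summed to 6.36 to 26.3 and 2.84 to 23.2 TPM, with 5 of 7 lower, and urothelial and squamous markers to 2.00 to 12.5 and 2.92 to 118 TPM, with 2 of 7 lower. The value of 118 TPM was that of DOX 19, in which all 4 uroplakin genes were at 0, and the next highest was 24.8 TPM in DOX 21. In DMSO 20 and DOX 19 several defining markers were at 0, among them Pecam1 and Cdh5 of endothelium and Star and Nr5a1 of adrenal cortex. Of all these markers only Cyp11a1 had groups that did not overlap in normalised counts. Over the whole table this held for 2.72% of 17550 genes, so the lack of other such markers does not set the lists apart. The part of these cells in the Ttc7b difference was not tested.

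The other genes of phosphoinositide metabolism were examined as a list of 52, covering synthesis and transfer of phosphatidylinositol, the other PI 4-kinases and their partners, PIP kinases, phosphatases, phospholipases C and class I PI 3-kinases. DESeq2 called 0 of 52 with 4 at an unadjusted p under 0.05 (7.69%), 3 higher and 1 lower, and edgeR called 0. Over all genes DESeq2 called 0.147% and found 4.67% at an unadjusted p under 0.05. Point estimates were higher with DOX for 28 and lower for 24, with a median log2 fold change of 0.03 beside -0.07 for all genes tested. In 3 of the 52 (5.77%) the groups did not overlap in normalised counts, which held for 2.72% of 17550 genes over the whole table.

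Within the list the 3 smallest p-values among higher genes belonged to Cdipt, Tmem150a and Inpp5b. Cdipt encodes phosphatidylinositol synthase, which makes the substrate of the kinase complex. Its TPM was 49.3, 47.8, 44.5 and 45.7 in DMSO 3, 5, 15 and 20, and 84.7, 74.5, 65.4 and 73.3 in DOX 9, 12, 19 and 21. The groups did not overlap, and both were narrow, with means of 46.8 ± 2.15 and 74.5 ± 7.92 TPM (SD, n = 4 each). The difference on the log2 scale, 0.58 (SE 0.183), did not pass the adjustment over all genes (DESeq2 adjusted p = 0.259). Tmem150a encodes a membrane protein known to associate with EFR3 and PI4KA. Its normalised counts were 1048, 855, 1038 and 1134 in DMSO 3, 5, 15 and 20, and 2291, 1398, 1468 and 1211 in DOX 9, 12, 19 and 21. On this scale all DOX libraries were above all DMSO libraries, DOX 9 by far the most, whereas in TPM DMSO 20 and DOX 21 were level at 19.2 (log2 fold change 0.64, SE 0.267; DESeq2 adjusted p = 0.753). Inpp5b, a PIP2 5-phosphatase related to the Lowe syndrome gene Ocrl, had 17.9, 23.0, 14.8 and 36.2 TPM in the DMSO and 33.4, 36.5, 37.1 and 35.0 TPM in the DOX libraries. Only DMSO 20 reached the level of the DOX libraries (log2 fold change 0.58, SE 0.270; DESeq2 adjusted p = 0.868), and Inpp5b was called when DMSO 20 alone, or DMSO 20 and DOX 19, were left out.

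Among lower genes the 3 smallest p-values were those of Pitpnc1, Pik3r3 and Pikfyve. Pitpnc1, a phosphatidylinositol transfer protein, had 1773 to 2643 normalised counts with DMSO and 1215 to 1684 with DOX, without overlap on that scale, whereas its TPM overlapped (5.88 to 11.2 and 4.47 to 7.67) (log2 fold change -0.48, SE 0.219; DESeq2 adjusted p = 0.844). Pik3r3, a regulatory subunit of PI 3-kinase, had 26.4 ± 15.2 TPM in DMSO and 14.5 ± 6.10 TPM in DOX libraries (SD, n = 4 each). Its groups overlapped, with DMSO 15 the lowest of all libraries (log2 fold change -0.92, SE 0.515; DESeq2 adjusted p = 0.999), and it was called when DMSO 15 was left out. Pikfyve, an endosomal lipid kinase, had 2.14, 3.26, 1.93 and 9.40 TPM in DMSO 3, 5, 15 and 20, and 2.16, 3.34, 1.84 and 2.63 TPM in DOX 9, 12, 19 and 21. Apart from the high DMSO 20 the groups covered the same range (log2 fold change -0.79, SE 0.506; DESeq2 adjusted p = 0.999).

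The PI 4-kinases that work elsewhere in the cell had similar group means, with wide errors. Pi4kb, which makes PI4P at the Golgi, averaged 27.2 ± 4.26 TPM in DMSO and 26.5 ± 6.53 TPM in DOX (log2 fold change -0.11, SE 0.234). The type II kinase Pi4k2a averaged 26.5 ± 9.11 and 29.4 ± 10.8 TPM (0.06, SE 0.383), and Pi4k2b 80.2 ± 45.2 and 82.9 ± 17.5 TPM (-0.02, SE 0.426; SD, n = 4 each; DESeq2 adjusted p = 0.999 for each of the 3). All 3 were above Pi4ka in mean TPM. By sublist, point estimates were higher with DOX for 5 of 9 genes of synthesis and transfer, 3 of 6 other PI 4-kinases and partners, 4 of 8 PIP kinases, 2 of 5 PI4P phosphatase and lipid exchange genes, 5 of 7 PIP2 5-phosphatases, 6 of 10 phospholipases C, and 3 of 7 PI 3-kinase genes.

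**Figure D4:**
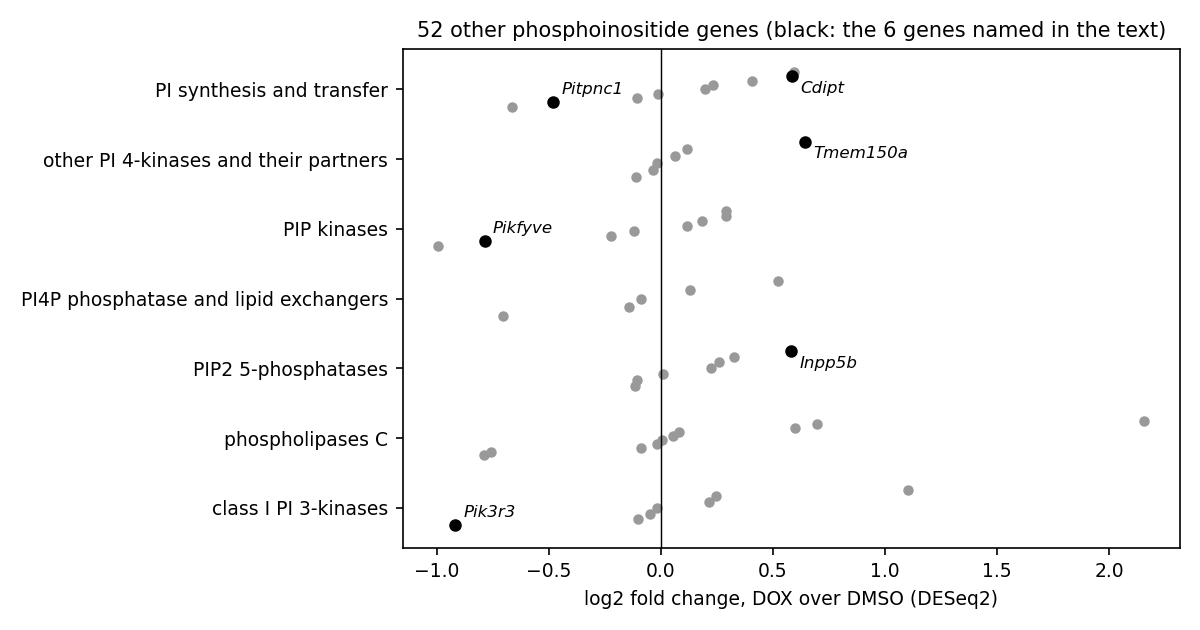
Log2 fold change of DOX over DMSO from DESeq2 (horizontal axis) for the 52 other phosphoinositide genes, 1 point per gene, in rows by sublist; black points are the named genes. Points fall on both sides of 0 in every row, 28 higher and 24 lower, and 0 of the 52 were called.

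The genes whose pattern over the 8 libraries was most like that of Ttc7b were sought by the root mean square difference of log2 normalised counts, each centred on its own mean, among 13247 genes with a mean of at least 100. Nearest were Renbp (0.153), an N-acetylglucosamine epimerase that binds renin, Stk40 (0.182), a kinase-like protein, Elmo2 (0.189), a partner of DOCK exchange factors for Rac, Zhx2 (0.194), a homeobox repressor, and Pex14 (0.198), a docking protein of peroxisomal import. Each was higher with DOX, with log2 fold changes of 0.99, 0.68, 0.71, 0.71 and 0.71, which a search for likeness to Ttc7b favours. Of these 5, Renbp and Zhx2 were called. When group means were subtracted first, so that only differences among libraries of one group counted, Rnaseh2c, Zfyve1, Fam219b and Ptcd1 were among the 5 nearest genes, and 0 of the 5 were shared. Among the members, Pi4ka was the nearest to Ttc7b at rank 409, followed by Efr3a at rank 2778; with group means subtracted they ranked 1348 and 3678. Fam126b ranked 8239, Fam126a 10203, Ttc7 10358 and Efr3b 11446, all far from the nearest genes.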

How the data were processed

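Tubuloid RNA was sequenced as poly-A selected SMART-Seq v4 libraries, 4 per group, grouped by the treatment label. The authors aligned reads to mm10 with STAR and deposited per transcript a whole-number count, an FPKM (scaled by length and library total) and a TPM; the submitters' notes also name featureCounts and DESeq2. Versions, and the handling of reads shared by paralogs, isoforms or overlapping genes, are not given in the sources used here. Counts (33068 transcripts) were summed by symbol to 24063 genes and used for tests, TPM described levels, and FPKM gave transcript lengths.

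DOX and DMSO were compared with DESeq2 1.42.0 (Wald test; R 4.3.3), without covariates, with independent filtering at alpha 0.1 and Benjamini-Hochberg adjustment over all genes. The quasi-likelihood test of edgeR 4.0.16, limma-voom (limma 3.58.1), other size factors, filters, covariates, 1 transcript per gene and left-out libraries were alternatives. The code was tested on simulated data. Named were all 7 members, called genes and the 3 smallest p-values per direction of the phosphoinositide list, and the 5 genes most like Ttc7b; marker lists were given as counts and summed TPM, with genes at 0 named as examples. Of the phosphoinositide list and of the genes like Ttc7b, 1 gene each is not reported here, and the list's counts leave it out. Members and lists were chosen with earlier results of these data known. The macrophage marker Adgre1 was matched under its older symbol Emr1. Xist and Y-linked transcripts marked 1 library per group as male. Depth (63922677 to 102716313 counts) covers counting error only, and sums may count reads shared by isoforms more than once.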

Additional observations from a re-analysis of the deposited data

Results flagged for a closer look

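In 3 of 14 tests, each of 1 gene in 1 group of 4 libraries, a single library lay far from the others on the scale of log2(normalised count + 1). Chance flags about 1 in 20 such groups. Fam126b in DMSO 20 was at 7.71, against 10.2 to 10.5 in the other DMSO libraries, a gap of 0.877 of the group's range. Efr3b in DMSO 20 was at 0, against 6.60 to 7.69, a gap of 0.858. Efr3b in DOX 19 was at 9.45, against 5.93 to 6.48, a gap of 0.844. All 3 values come from DMSO 20 and DOX 19, the libraries with the fewest detected genes (13243 and 13599), and what set these libraries apart was not tested. Ttc7b was not flagged in either group.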

How the results depend on the processing

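The log2 fold change of Ttc7b stayed between 0.84 and 1.07 under 17 alternatives (0.89 to 1.07 with 1 library left out). The number of members called, 1 by the choice of Ttc7b, was 0 with edgeR, with limma-voom and with 3 against 3 libraries. A repeated call elsewhere is no sign of stability, since the call chose the gene. For the other 6 genes, 96 of 101 alternative values kept their direction and 0 were called (smallest adjusted p 0.496, from the same tools). The other 5 changed sign. Efr3b had no adjusted p with sex as a covariate, without DMSO 15 or without DMSO 20. It could not be called in those fits. With 1 library left out, log2 fold changes were -0.42 to 1.73 for Efr3b, -0.53 to 0.045 for Fam126b, -0.010 to 0.24 for Efr3a, -1.22 to -0.16 for Fam126a (nearest 0 without DMSO 20), -0.83 to -0.23 for Ttc7 (nearest 0 without DOX 19) and 0.19 to 0.56 for Pi4ka (lowest without DOX 19). Efr3b was -0.83 with 3 against 3 libraries and -0.42 without DOX 19, and Fam126b was 0.068 with low gene detection as a covariate. Without DMSO 5, Fam126b was 0.045 and Efr3a -0.010. The cause was not tested. Calls over all genes, 25 in the report, were 51 with 3 against 3 libraries, 48 with the Cook's distance filter off, 16 with at least 10 counts in every library, 41 with low gene detection and 43 with sex as a covariate, 0 with edgeR (476 at an unadjusted p under 0.05) and 0 with limma-voom (478). With 1 library left out they were 14 (without DMSO 3) to 75 (without DMSO 15). The share called higher was 56.0% in the report, 54.5% with TMM size factors and 28.9% without DOX 21. Of the phosphoinositide list 1 gene was called with 3 against 3 libraries (Inpp5b), and 0 to 1 with 1 library left out (Pik3r3 without DMSO 15, Inpp5b without DMSO 20). Computing levels from 1 transcript or from counts per kilobase could not move the Ttc7b share of its pair, since each gene has 1 transcript and the library total cancels. Of the 5 genes nearest to Ttc7b, 0 were shared after group means were subtracted. No paired analysis was possible because the library numbers are not shared between groups.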
